A study of Homo sapiens with 9 samples.

Results

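The genes described here are the caveolins CAV1 and CAV2, the cavins CAVIN1, CAVIN2 and CAVIN3, and the fatty acid receptor CD36. They were taken by symbol from a table of raw read counts, in which 6 of 6 symbols were found among 25886, and 6 of 6 passed the filter on low counts. The table covers 9 libraries of rRNA-depleted total RNA from HT29, an established human colorectal cancer cell line, sequenced in 3 groups of 3. The groups were DNMT1 knockdown, DNMT3B knockdown and Control. Cells of every group, Control included, had been grown under puromycin, and the stable knockdowns were made with lentiviruses. The count columns are headed shDNMT1, shDNMT3B and shCTR, which reads as short hairpins against each gene and a control hairpin in Control. The labels do not state the hairpin sequences or whether a group is 1 clone or a pool. Separate cultures for the 3 libraries of a group are not stated either, so each p-value reflects variation among libraries that could be purely technical. Both knockdowns are set against the same 3 Control libraries. The comparison asks how transcripts differ when either DNA methyltransferase is lowered, the study having been built around their loss under proteasome inhibitors.

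Caveolae are small flask-shaped pits of the plasma membrane. Caveolins are the hairpin membrane proteins of their inner face, and CAV1 is needed for caveolae outside striated muscle, while CAV2 needs CAV1 to reach the surface. Cavins are coat proteins that assemble on the caveolin-rich membrane, with CAVIN1 required for the pit to form and CAVIN2 and CAVIN3 joining it. CD36 is a class B scavenger receptor that takes up long-chain fatty acids and oxidised lipoproteins and is found in lipid rafts, caveolae among them. CAV1 and CAV2 lie next to each other on chromosome 7.

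The labels were checked first. DNMT1 stood at 248, 250 and 257 CPM in the 3 DNMT1 knockdown libraries, against 448, 468 and 457 CPM in Control, where CPM is the counts-per-million value after TMM scaling of library sizes. DNMT3B stood at 32.8, 27.9 and 30.8 CPM in the DNMT3B knockdown libraries, against 60.9, 60.4 and 62.6 CPM in Control. Each targeted mRNA was thus lowered and not lost. Libraries held 23.4 to 24.2 M counts in DNMT1 knockdown, 18.8 to 26 M in DNMT3B knockdown and 26.9 to 33.7 M in Control. Of 10 colorectal epithelial markers, 7 averaged at least 1 CPM in each group, among them EPCAM, the keratins KRT8, KRT18 and KRT19, CDH1 and CDX2. CDX1 had 1 count in all libraries together, and the differentiation markers VIL1 and LGALS4 were under 1 CPM.

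The promoters of the genes differ widely in CpG dinucleotides, the substrate of the DNA methyltransferases, and are shown for that reason. RefSeq windows on build GRCh38.p14 were held for 4 of the 6 genes. The 250 bases before the first RefSeq start site of each are given below, 5′ to 3′, with every CG in capitals.
CD36 promoter, chr7:80601957-80602206, plus strand: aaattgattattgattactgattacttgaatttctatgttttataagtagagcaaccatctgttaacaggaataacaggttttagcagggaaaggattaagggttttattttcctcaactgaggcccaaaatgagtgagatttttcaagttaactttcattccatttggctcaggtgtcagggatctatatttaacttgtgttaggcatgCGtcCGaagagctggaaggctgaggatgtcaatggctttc
CAVIN2 promoter, chr2:191847089-191847338, minus strand: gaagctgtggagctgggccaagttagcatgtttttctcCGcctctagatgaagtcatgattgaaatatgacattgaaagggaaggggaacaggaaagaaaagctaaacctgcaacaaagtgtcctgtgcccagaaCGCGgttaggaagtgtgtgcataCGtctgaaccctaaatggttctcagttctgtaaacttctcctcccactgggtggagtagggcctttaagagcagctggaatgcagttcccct
CAV1 promoter, chr7:116524759-116525008, plus strand: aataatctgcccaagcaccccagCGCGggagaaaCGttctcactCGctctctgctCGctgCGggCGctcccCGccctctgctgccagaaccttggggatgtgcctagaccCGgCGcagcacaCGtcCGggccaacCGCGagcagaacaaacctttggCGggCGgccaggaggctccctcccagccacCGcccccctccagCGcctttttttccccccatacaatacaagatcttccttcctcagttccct
CAV2 promoter, chr7:116499488-116499737, plus strand: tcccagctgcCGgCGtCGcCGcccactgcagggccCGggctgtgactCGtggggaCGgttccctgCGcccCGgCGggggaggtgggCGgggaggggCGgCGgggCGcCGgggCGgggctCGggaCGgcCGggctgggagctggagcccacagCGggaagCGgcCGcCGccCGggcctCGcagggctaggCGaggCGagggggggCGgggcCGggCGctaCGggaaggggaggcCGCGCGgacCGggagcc
The motif searched was CG, which reads the same on both strands and does not overlap itself. At least 1 CG was in 93.9% of all 35116 windows of this length, and the median window held 11. The CD36 window held 2, with fewer in 14.7% of all windows, and 5 further RefSeq start sites of CD36 had 1 or 2 each (0 to 3 over the 6 windows when moved 50 bases downstream). In the CAVIN2 window there were 4, with fewer in 29.3% of windows. CAV1 had 18 before its first start site and 16 and 29 before the others. CAV2 had 35 before its first start site, with fewer in 94.2% of windows, and 27 before the other, with fewer in 82.3%. These counts describe letters only, since the files hold no methylation measurement. GENCODE lists 19 start sites for CD36, 10 for CAV2, 8 for CAV1 and 1 for CAVIN2, and the counts per gene do not tell transcripts from different starts apart.

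Per kilobase of annotated exon, CAV1 and CAVIN1 were the most abundant of the genes and CAVIN2 and CD36 the least, in each group. In DNMT1 knockdown the levels in CPM per kilobase were 47.4 ± 0.63 for CAV1 (SD, n = 3) and 45.3 ± 2.39 for CAVIN1, neighbours in the order that did not differ beyond their spread. CAV2 followed at 15.1 ± 0.169, CAVIN3 at 4.7 ± 0.271, CAVIN2 at 0.329 ± 0.091 and CD36 at 0.0627 ± 0.0055. In DNMT3B knockdown CAV1 stood at 75.9 ± 3.53 and CAVIN1 at 41.3 ± 0.244, well apart, followed by CAV2 at 24.4 ± 0.201 and CAVIN3 at 4.23 ± 0.413. In Control they were 54.1 ± 2.89 for CAV1, 43.6 ± 0.768 for CAVIN1, 16.4 ± 0.277 for CAV2 and 5.15 ± 0.359 for CAVIN3. CAVIN2 and CD36 stood at 1.28 ± 0.18 and 0.11 ± 0.043 in DNMT3B knockdown, and at 0.86 ± 0.131 and 0.329 ± 0.0215 in Control. The lengths sum all annotated exons, 10.9 kb for CD36 and 6.93 kb for CAV2, so genes with long rare transcripts are understated on this scale.

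The genes did not move as a group. CD36 was lower in both knockdowns, CAV1, CAV2 and CAVIN2 were lower in DNMT1 knockdown and higher in DNMT3B knockdown, and CAVIN1 and CAVIN3 stayed within 1.21-fold of Control in both. The genes were chosen with results of all 9 libraries known, so their own values are a description, with no test. In bulk RNA, fewer cells that express a gene and less of its RNA per cell cannot be told apart.

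**Figure D1:**
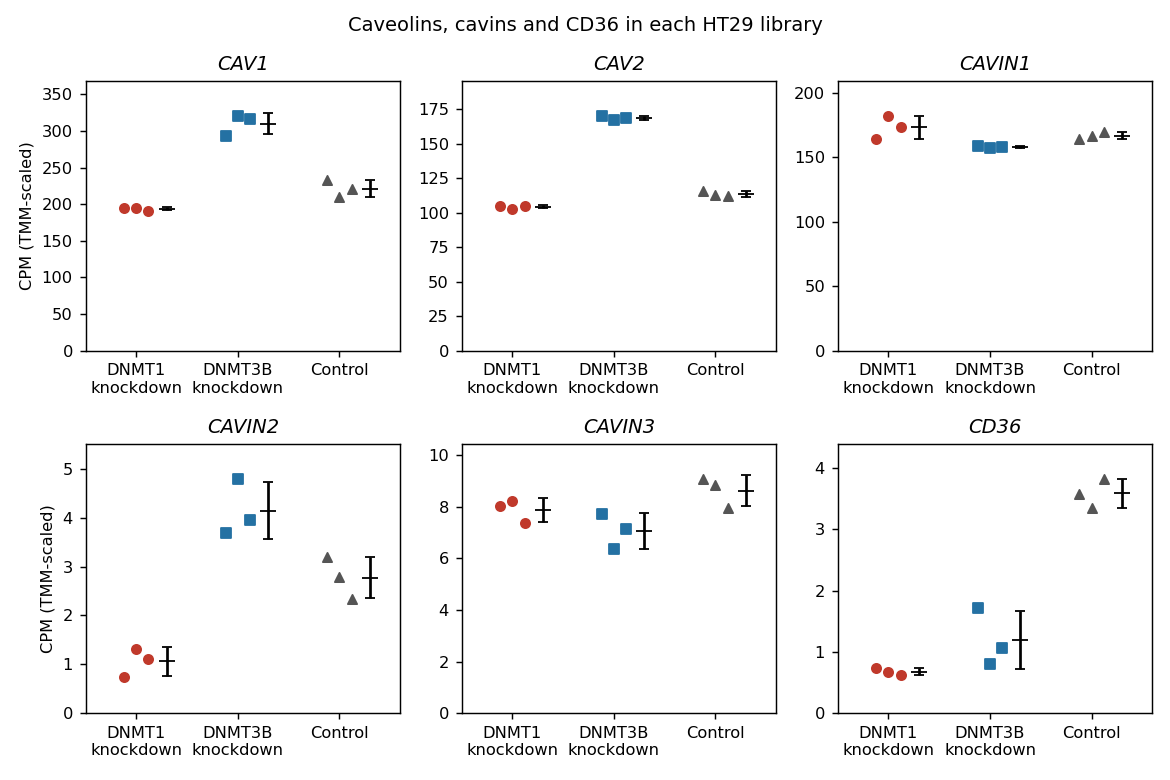
CPM of each gene (y axis, from 0) in each of the 9 libraries, by group (x axis); points are libraries, and the bar beside them is the mean ± SD of 3. CAV1 and CAV2 sit highest in DNMT3B knockdown (309.9 ± 14.4 and 169 ± 1.39 CPM), while CD36 sits highest in Control (3.58 ± 0.234 CPM).

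CD36 (ENSG00000135218.18, chromosome 7, 80369575 to 80679277, plus strand, GRCh38) had 18, 16 and 15 counts in the DNMT1 knockdown libraries, 42, 15 and 28 in the DNMT3B knockdown libraries and 120, 90 and 119 in Control. These are 0.743, 0.682 and 0.623 CPM in DNMT1 knockdown, 1.72, 0.808 and 1.07 CPM in DNMT3B knockdown and 3.58, 3.35 and 3.82 CPM in Control. Every knockdown library was below every Control library, and the lowest DNMT3B knockdown library was above the highest DNMT1 knockdown library by a small margin. The level was 5.23-fold lower in DNMT1 knockdown than in Control (log2 fold change -2.39 ± 0.197, standard error) and 2.92-fold lower in DNMT3B knockdown (-1.54 ± 0.173). These were the fourth and the eighth lowest of 16660 log2 fold changes. Between the knockdowns the log2 fold change of DNMT1 over DNMT3B knockdown was -0.84 ± 0.267, and -0.49 without DNMT3B knockdown replicate 1, the library with 42 counts.

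A gene annotated inside the span of CD36 had few counts and the same order of groups. GNAT3, the taste G protein gustducin, lies on the opposite strand within CD36 in GENCODE. It had 2, 1 and 0 counts in DNMT1 knockdown, 0, 3 and 6 in DNMT3B knockdown and 11, 14 and 13 in Control, and did not pass the filter on low counts. It was chosen after its values were seen. The sources used here do not say whether counting used strand, so reads of the 2 genes cannot be told apart where they overlap, and the part of GNAT3 in the CD36 counts was not tested.

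CAV1 (ENSG00000105974.11, chromosome 7, 116524785 to 116561184, plus strand) stood at 195, 195 and 191 CPM in DNMT1 knockdown, 293, 320 and 316 CPM in DNMT3B knockdown and 233, 210 and 220 CPM in Control. The 3 groups did not overlap. DNMT1 knockdown was at 87.5% of Control (log2 fold change -0.19 ± 0.0383) and DNMT3B knockdown at 140% (0.49 ± 0.0376). It had 4568 to 4733 counts in DNMT1 knockdown, 5944 to 8253 in DNMT3B knockdown and 5630 to 7818 in Control.

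CAV2 (ENSG00000105971.14, chromosome 7, 116287380 to 116508541, plus strand) followed the same order at a lower level. Its values were 105, 103 and 105 CPM in DNMT1 knockdown, 170, 167 and 169 CPM in DNMT3B knockdown and 116, 113 and 112 CPM in Control. Again the groups did not overlap. The log2 fold change was -0.12 ± 0.0341 in DNMT1 knockdown and 0.57 ± 0.0331 in DNMT3B knockdown, 91.8% and 148% of Control. DNMT1 knockdown over DNMT3B knockdown gave -0.69 ± 0.0339 for CAV2 and -0.68 ± 0.0383 for CAV1. Antisense RNAs are annotated in both caveolin genes, and in CAVIN2 and CD36, but have no row of their own in the table. With the strand setting not stated, their reads cannot be told apart from those of these genes where they overlap.

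CAVIN2 (ENSG00000168497.4, chromosome 2, 191834302 to 191847255, minus strand), which helps to bend the caveolar membrane, had 18, 31 and 27 counts in DNMT1 knockdown, 90, 89 and 103 in DNMT3B knockdown and 107, 75 and 73 in Control. In CPM these are 0.743, 1.32 and 1.12 for DNMT1 knockdown, 3.68, 4.79 and 3.95 for DNMT3B knockdown and 3.19, 2.79 and 2.34 for Control. The groups did not overlap, and DNMT1 knockdown lay farther from Control than DNMT3B knockdown did. The level was 2.62-fold lower in DNMT1 knockdown (log2 fold change -1.39 ± 0.193) and 1.47-fold higher in DNMT3B knockdown (0.55 ± 0.141). DNMT1 knockdown stood 3.84-fold below DNMT3B knockdown (-1.94 ± 0.186), the widest direct difference among the 6 genes.

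CAVIN1 (ENSG00000177469.12, chromosome 17, 42402452 to 42423517, minus strand) was the flattest of the genes. It stood at 164, 182 and 174 CPM in DNMT1 knockdown, 159, 157 and 158 CPM in DNMT3B knockdown and 164, 167 and 170 CPM in Control. DNMT1 knockdown spanned the Control range, while the DNMT3B knockdown libraries lay just under it. The log2 fold changes were 0.06 ± 0.0358 in DNMT1 knockdown and -0.08 ± 0.0361 in DNMT3B knockdown.

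CAVIN3 (ENSG00000170955.9, chromosome 11, 6318946 to 6320647, minus strand), a partner of CAVIN1 also known as a protein kinase C delta binding protein, had 8.01, 8.23 and 7.35 CPM in DNMT1 knockdown. It had 7.73, 6.35 and 7.12 CPM in DNMT3B knockdown and 9.07, 8.83 and 7.93 CPM in Control. DNMT1 knockdown overlapped Control, and DNMT3B knockdown lay under it with a narrow gap. The log2 fold changes were -0.13 ± 0.0869 in DNMT1 knockdown and -0.27 ± 0.0896 in DNMT3B knockdown.

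**Figure D2:**
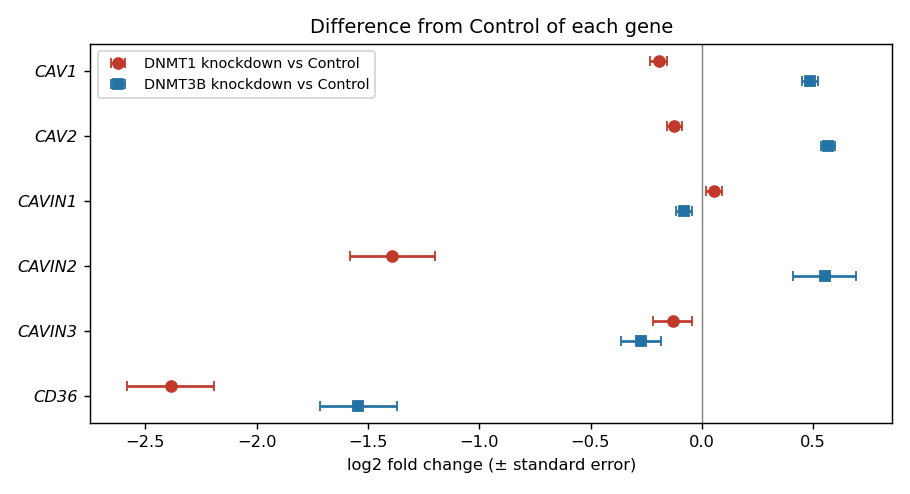
Log2 fold change of each gene against Control (x axis) in DNMT1 knockdown (red circles) and DNMT3B knockdown (blue squares), with bars of ± 1 standard error. CD36 lies left of 0 in both (-2.39 and -1.54), and CAVIN2 lies at -1.39 and 0.55.

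In the fit over all genes, edgeR called 4 of the 6 genes in DNMT1 knockdown against Control, all lower, where it called 41.8% of all tested genes, 21% as higher and 20.8% as lower. In DNMT3B knockdown against Control it called 3 higher and 2 lower, with CAVIN1 not called, where it called 47.7% of all genes, 23.1% as higher and 24.6% as lower. Between the knockdowns it called 1 higher in DNMT1 knockdown (CAVIN1) and 4 lower, where it called 45.2% of all genes, 24.3% as higher and 20.9% as lower. The calls on CAVIN3 in DNMT3B knockdown and on CD36 between the knockdowns depended on single libraries. CAVIN3 was no longer called without DNMT3B knockdown replicate 2 (log2 fold change -0.21) or Control replicate 1 (-0.23), which left 1 gene called lower. CD36 was no longer called between the knockdowns without DNMT3B knockdown replicate 1 (-0.49). CAVIN1 was called higher in DNMT1 knockdown without DNMT1 knockdown replicate 1 (0.10), which made 1 gene called higher. Libraries of the 2 groups did not overlap for 4 of 6 genes in DNMT1 knockdown against Control, where this held for 49.4% of all genes, 24.8% higher and 24.6% lower. It held for 6 of 6 in DNMT3B knockdown against Control, where it held for 54.1% of all genes, 26.6% higher and 27.6% lower. Between the knockdowns it held for 5 of 6, where it held for 52.2% of all genes, 27.7% higher in DNMT1 knockdown and 24.5% lower. Nothing is read from these counts, since the genes were chosen on the same libraries.

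The ratio of 2 genes within a library does not depend on how libraries are scaled. Per 100 CAV1 reads there were 54 ± 1 CAV2 reads in DNMT1 knockdown, 54.5 ± 2.98 in DNMT3B knockdown and 51.6 ± 2.13 in Control (SD, n = 3 each), with all 3 groups overlapping. The caveolin pair thus kept nearly the same ratio while both levels differed between groups. Per 100 CAV1 reads there were 89.6 ± 5.08 CAVIN1 reads in DNMT1 knockdown, 51.1 ± 2.73 in DNMT3B knockdown and 75.7 ± 4.68 in Control, with no overlap between groups. CAVIN1 itself was nearly level, so this ratio of RNA reads was low in DNMT3B knockdown where CAV1 RNA stood at 140% of Control. Among the cavins, there were 0.607 ± 0.14 CAVIN2 reads per 100 CAVIN1 reads in DNMT1 knockdown, 2.62 ± 0.382 in DNMT3B knockdown and 1.67 ± 0.283 in Control, again without overlap. CAVIN3 reads per 100 CAVIN1 reads were 4.54 ± 0.336, 4.47 ± 0.411 and 5.16 ± 0.446 in DNMT1 knockdown, DNMT3B knockdown and Control, ranges that overlapped.

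**Figure D3:**
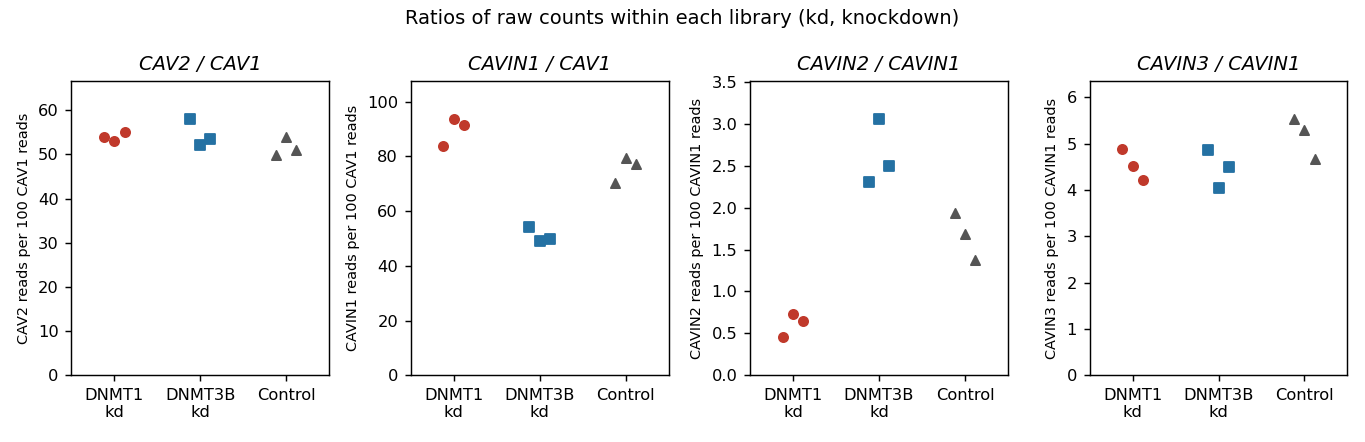
Raw reads of one gene per 100 reads of another (y axis, from 0) in each library, by group (x axis; kd, knockdown); each point is 1 library. CAV2 per CAV1 is level across groups (51.6 to 54.5), while CAVIN2 per CAVIN1 is lowest in DNMT1 knockdown (0.607).

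Of 5 tested genes near CAV1, CAV2 among them, 3 were called higher and 1 lower in DNMT1 knockdown. In DNMT3B knockdown 4 were called higher and 0 lower. Over all tested genes, 21% were called higher in DNMT1 knockdown and 23.1% in DNMT3B knockdown. The share of all genes higher in both was not counted, and so few genes give no regional result. Of the tested genes lying wholly within 500 kb of CAV1 other than CAV2, TES, MET and ST7-AS1 rose in both knockdowns. CAPZA2 was called in neither. TES, a LIM-domain protein of focal adhesions, averaged 133 ± 4.53 CPM in DNMT1 knockdown, 172 ± 2.43 CPM in DNMT3B knockdown and 111 ± 3.36 CPM in Control. It rose by a log2 fold change of 0.26 in DNMT1 knockdown (edgeR adjusted p = 8.02e-07) and 0.62 in DNMT3B knockdown (adjusted p = 1.57e-15), higher in 3 of 3 libraries of each. MET, the receptor of hepatocyte growth factor, averaged 303.8 ± 8.99 CPM in DNMT1 knockdown, 329 ± 9.32 CPM in DNMT3B knockdown and 185 ± 3 CPM in Control (adjusted p = 1.42e-17 for DNMT1 and 3.91e-19 for DNMT3B knockdown). ST7-AS1, an antisense RNA whose value is uncertain without strand, averaged 1.77 ± 0.111, 1.81 ± 0.0966 and 1.17 ± 0.189 CPM in the same groups. Its call in DNMT1 knockdown (log2 fold change 0.60) was lost without Control replicate 1 (adjusted p = 0.0541). CAPZA2 stood at 72.1 ± 3.85, 76.1 ± 2.76 and 72.4 ± 2.5 CPM in them. In DNMT1 knockdown TES and MET thus stood above Control, and CAV1 and CAV2 below it. Between the knockdowns TES and MET were lower in DNMT1 knockdown too, by log2 fold changes of -0.37 (adjusted p = 3.94e-10) and -0.11 (adjusted p = 0.00601).

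Both tested genes lying wholly within 500 kb of CAVIN2 were called higher in DNMT3B knockdown, NABP1 by a call that rested on 1 library. Over all tested genes 23.1% were called higher in DNMT3B knockdown, and so few neighbours give no regional result. NABP1 changed more in DNMT1 knockdown, where it fell. TMEFF2, a transmembrane protein with follistatin domains whose promoter is often methylated in colorectal cancer, averaged 0.79 ± 0.387 CPM in DNMT1 knockdown, 3.25 ± 0.3 CPM in DNMT3B knockdown and 1.04 ± 0.0962 CPM in Control. It rose in DNMT3B knockdown (log2 fold change 1.64, edgeR adjusted p = 8.44e-09), was not called in DNMT1 knockdown (-0.40, adjusted p = 0.223) and was lower in DNMT1 than in DNMT3B knockdown (-2.03, adjusted p = 1.46e-09). NABP1, a single-stranded DNA binding protein, averaged 33.6 ± 0.249 CPM in DNMT1 knockdown, 45.6 ± 1.7 CPM in DNMT3B knockdown and 41.5 ± 0.981 CPM in Control. It fell in DNMT1 knockdown (-0.31, adjusted p = 2.19e-06) and rose in DNMT3B knockdown (0.14, adjusted p = 0.0106), a call lost without DNMT3B knockdown replicate 1 (adjusted p = 0.0772). NABP1 thus had the same signs as CAVIN2.

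SEMA3C was the 1 tested gene lying wholly within 500 kb of CD36 and was called in neither knockdown. This secreted semaphorin averaged 48 ± 1.22 CPM in DNMT1 knockdown, 49.6 ± 1.31 CPM in DNMT3B knockdown and 49.6 ± 0.979 CPM in Control (edgeR adjusted p = 0.405 and 0.964 for the knockdowns). Over all tested genes, 41.8% were called in DNMT1 knockdown (21% higher and 20.8% lower) and 47.7% in DNMT3B knockdown (23.1% higher and 24.6% lower), which the next counts are to be read against. Around CAVIN1, 2 of 35 tested genes were higher and 5 lower in DNMT1 knockdown, and 8 were higher and 6 lower in DNMT3B knockdown. Around CAVIN3, 2 of 18 were higher and 4 lower in DNMT1 knockdown, and 7 were higher and 1 lower in DNMT3B knockdown. For both genes the share called in either direction was below that over all genes in each knockdown. By direction, the 7 of 18 higher around CAVIN3 in DNMT3B knockdown were above the 23.1% of all genes. The 4 of 18 lower around CAVIN3 in DNMT1 knockdown were just above 20.8%, and the other shares by direction were below those over all genes.

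**Figure D4:**
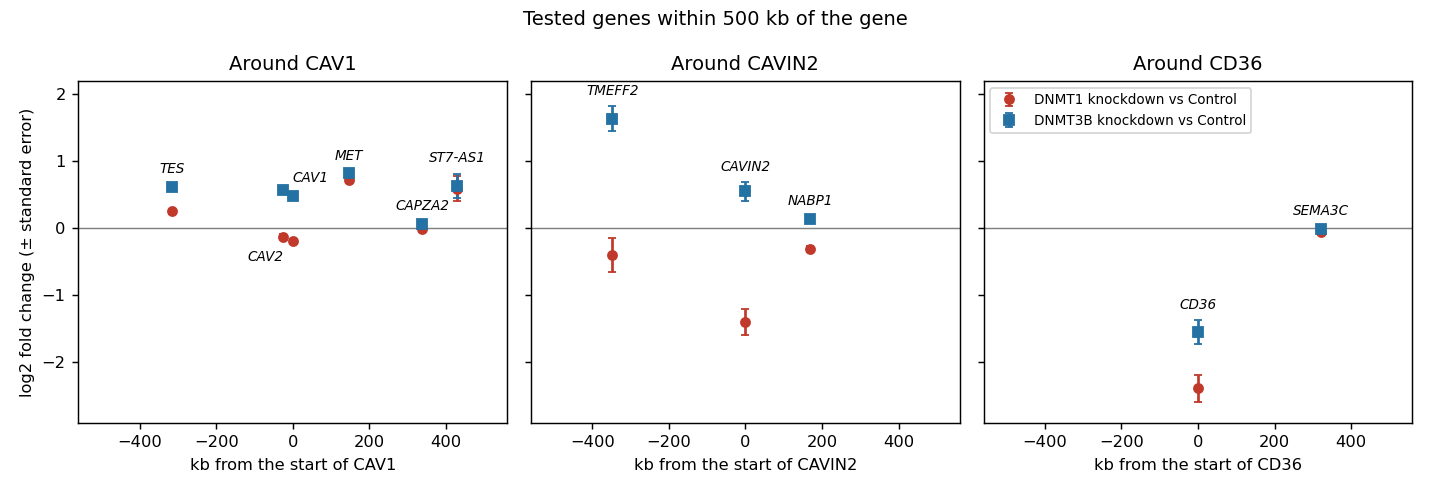
Log2 fold change against Control (y axis, ± 1 standard error) of the tested genes lying wholly within 500 kb of CAV1, CAVIN2 and CD36. The x axis is the distance in kb between start sites, positive in the gene's direction of transcription. MET (0.72 and 0.83) and TES (0.26 and 0.62) lie above 0 in both knockdowns, TMEFF2 at 1.64 in DNMT3B knockdown, and SEMA3C on 0.

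Genes whose levels followed those of 3 of the genes most closely were found by Pearson's r of log2 CPM over the 9 libraries, among 14752 other genes averaging 1 CPM or more. Libraries of a group lie close together, so r follows the group means, and it is given as a description. CD36 was matched best by ZNF525 (r = 0.979), the chaperone cofactor BAG5 (0.979) and the cationic amino acid transporter SLC7A1 (0.978), and 193 genes had an r above 0.9. SLC7A1 averaged 351 ± 2.94 CPM in DNMT1 knockdown, 389.8 ± 14.4 CPM in DNMT3B knockdown and 449 ± 8.93 CPM in Control, so the order was that of CD36 and the differences far smaller. CAV1 was matched best by ANXA3, a calcium-dependent membrane-binding annexin (0.996), by SLC35E1 (0.995) and by CEP55, a protein of the last step of cell division (0.991), and 516 genes had an r above 0.9. ANXA3 averaged 40.2 ± 1.35 CPM in DNMT1 knockdown, 68.4 ± 1.59 CPM in DNMT3B knockdown and 46 ± 3.1 CPM in Control. For CAVIN2 the closest were SLC5A4-AS1, an antisense RNA whose value is uncertain (0.985), GPD1L (0.982) and CIAO1 (0.978).

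The next lists hold genes of related function, and their counts stand beside shares over all genes of 21% higher and 20.8% lower in DNMT1 knockdown, and 23.1% higher and 24.6% lower in DNMT3B knockdown. The median log2 fold change over all genes was -0.002 in DNMT1 and 0.002 in DNMT3B knockdown. Of 13 tested genes for proteins that build caveolae or cut them off, 8 rose and 0 fell in DNMT1 knockdown, with a median log2 fold change of 0.133, 6 to 8 rose when single libraries were left out, and 1 fell without DNMT1 knockdown replicate 1. The receptor tyrosine kinase-like ROR1, which holds caveolins and CAVIN1 together at the membrane, rose most. It averaged 13.6 ± 0.86 CPM in DNMT1 knockdown, 9.48 ± 0.413 CPM in DNMT3B knockdown and 7.42 ± 0.869 CPM in Control (log2 fold change 0.87 and edgeR adjusted p = 3.23e-10 for DNMT1 knockdown, 0.34 and adjusted p = 0.00193 for DNMT3B knockdown). DNM1, a dynamin that pinches off vesicles, rose by 0.39 in DNMT1 knockdown (adjusted p = 2.46e-05). EHD1, an ATPase of membrane tubules related to the EHD2 of the caveola neck, rose by 0.19 in DNMT1 knockdown (adjusted p = 0.000514) and 0.44 in DNMT3B knockdown (adjusted p = 1.88e-10).

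In DNMT3B knockdown 4 of the 13 rose and 2 fell, with a median of 0.015. PACSIN1, a membrane-bending F-BAR protein, rose by 0.53 (9.05 ± 0.245 CPM in DNMT3B knockdown and 6.3 ± 0.415 CPM in Control, adjusted p = 8.83e-06). EHD4 fell by 0.35 (adjusted p = 5.27e-09). CAVIN4, the muscle cavin, averaged 2 ± 0.301 CPM in DNMT3B knockdown and 2.9 ± 0.355 CPM in Control and fell by 0.57 (adjusted p = 0.00237). CAV3, the muscle caveolin, had 20 counts over the DNMT1 knockdown libraries, 28 over DNMT3B knockdown and 24 over Control, and was not tested.

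Flotillins and related proteins scaffold membrane domains without caveolins. Of 9 tested, 3 rose and 1 fell in DNMT1 knockdown (median log2 fold change 0.06), and 1 rose and 3 fell in DNMT3B knockdown (median -0.02). STOM, stomatin, rose in both, at 28.5 ± 0.563 CPM in DNMT1 knockdown, 36.2 ± 1.6 CPM in DNMT3B knockdown and 24.3 ± 0.63 CPM in Control (adjusted p = 0.00056 and 3.57e-11). STOML2, its mitochondrial relative, fell in both, by 0.22 in DNMT1 knockdown (adjusted p = 0.000187) and 0.19 in DNMT3B knockdown (adjusted p = 0.000819). FLOT2 was called higher in DNMT1 knockdown (0.12, adjusted p = 0.013) and lower in DNMT3B knockdown (-0.10, adjusted p = 0.0398). The DNMT1 call on FLOT2 was lost without DNMT1 knockdown replicate 3 or Control replicate 1 (adjusted p up to 0.0826), and the DNMT3B call without DNMT1 knockdown replicate 2, DNMT3B knockdown replicate 2 or 3, or Control replicate 2 or 3 (up to 0.204). ERLIN2 was called higher in DNMT1 knockdown (0.11, adjusted p = 0.0345), a call lost without DNMT1 knockdown replicate 1 or 3 or Control replicate 2 or 3 (up to 0.0974). ERLIN1 was called lower in DNMT3B knockdown (-0.11, adjusted p = 0.0124), a call lost without Control replicate 1 (adjusted p = 0.096). The count that rose was 1 in DNMT1 knockdown without DNMT1 knockdown replicate 3, and 2 in DNMT3B knockdown without DNMT3B knockdown replicate 2.

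Other receptors of the scavenger classes were called in both directions. Of 9 tested, 2 rose and 1 fell in DNMT1 knockdown (median log2 fold change 0.04), and 1 rose and 4 fell in DNMT3B knockdown (median -0.09). SCARB1, the class B receptor of high-density lipoprotein, averaged 195 ± 3.61 CPM in DNMT1 knockdown, 179 ± 2.09 CPM in DNMT3B knockdown and 199.8 ± 6.11 CPM in Control. It was not called in DNMT1 knockdown (edgeR adjusted p = 0.375) and fell by 0.16 in DNMT3B knockdown (adjusted p = 0.000229). SCARB2, the lysosomal member of the class, rose by 0.11 in DNMT1 knockdown (adjusted p = 0.0138). It was called lower in DNMT3B knockdown (-0.10, adjusted p = 0.0307), a call lost without DNMT3B knockdown replicate 1 or 3 or any single Control library (adjusted p up to 0.247). CD68, a lysosomal glycoprotein of the scavenger class, averaged 18.1 ± 0.755 CPM in DNMT1 knockdown, 32.9 ± 2.44 CPM in DNMT3B knockdown and 17.7 ± 0.54 CPM in Control and rose with DNMT3B knockdown (0.91, adjusted p = 2.78e-14). SCARF1 fell by 0.80 in DNMT3B knockdown (adjusted p = 0.000462), and CXCL16, a chemokine that also binds oxidised lipoprotein, fell by 0.21 in DNMT1 knockdown (adjusted p = 8.15e-05) and by 0.12 in DNMT3B knockdown (adjusted p = 0.0151). The DNMT3B call on CXCL16 was lost without DNMT3B knockdown replicate 2 or Control replicate 1 or 2 (adjusted p up to 0.114). That of SCARF2 in DNMT1 knockdown (0.32) was lost without DNMT1 knockdown replicate 3 or Control replicate 1 or 3 (up to 0.329), each leaving 1 that rose. In DNMT3B knockdown 2 fell without Control replicate 1 or 2. MSR1, MARCO, OLR1 and SCARA5 had too few counts to be tested.

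**Figure D5:**
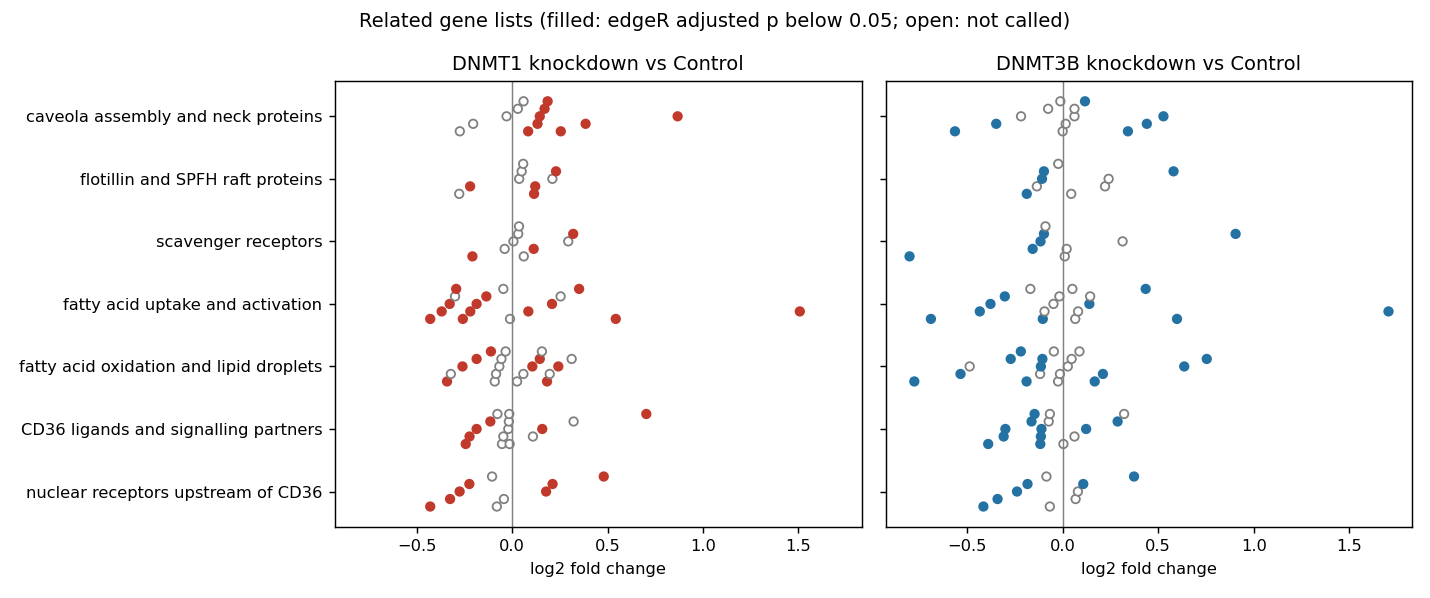
Log2 fold change against Control (x axis) of each tested gene of the 7 related lists (rows) in DNMT1 knockdown (left) and DNMT3B knockdown (right); filled points passed an edgeR adjusted p of 0.05 and open points did not. In DNMT1 knockdown the caveola assembly list has 8 filled points right of 0 and 0 left of it.

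Genes of fatty acid uptake and activation were called in both directions. Of 17 tested, 5 rose and 8 fell in DNMT1 knockdown (median log2 fold change -0.14), and 4 rose and 5 fell in DNMT3B knockdown (median -0.02). The transport protein SLC27A3 averaged 12.5 ± 0.539 CPM in DNMT1 knockdown, 10 ± 0.669 CPM in DNMT3B knockdown and 16.2 ± 0.876 CPM in Control (edgeR adjusted p = 5.66e-05 and 2.04e-09). SLC27A2 fell by 0.33 in DNMT1 knockdown (adjusted p = 3.26e-06) and by 0.43 in DNMT3B knockdown (adjusted p = 1.99e-08). ACSS2, which makes acetyl-CoA from acetate, fell by 0.29 (adjusted p = 6.09e-07) and 0.38 (adjusted p = 4.08e-09) in the same order. ACSL5, a long-chain acyl-CoA synthetase, averaged 441 ± 2.91 CPM in DNMT1 knockdown, 316 ± 1.58 CPM in DNMT3B knockdown and 302 ± 6.44 CPM in Control and rose in DNMT1 knockdown (0.54, adjusted p = 2.5e-15).

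SLC27A1 rose by 0.35 in DNMT1 knockdown (adjusted p = 3.63e-05). FABP6, the ileal bile acid binding protein, rose in both, at 1.56 ± 0.219 CPM in DNMT1 knockdown, 1.77 ± 0.25 CPM in DNMT3B knockdown and 0.545 ± 0.112 CPM in Control (adjusted p = 3.13e-06 and 1.65e-07). The binding proteins FABP5 (0.14, adjusted p = 0.00994) and FABP3 (0.43, adjusted p = 0.0107) were called higher in DNMT3B knockdown, and each call was lost without 1 library. That of FABP5 was lost without DNMT3B knockdown replicate 2 (adjusted p = 0.0815) and that of FABP3 without Control replicate 1 (adjusted p = 0.0679). The count that rose was 3 in DNMT1 knockdown without DNMT1 knockdown replicate 1, DNMT1 knockdown replicate 3 or Control replicate 2, and 2 in DNMT3B knockdown without Control replicate 1. FABP1, FABP4 and FABP7 had at most 4 counts in all libraries together.

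Genes of fatty acid oxidation and lipid droplets split. Of 19 tested, 4 rose and 4 fell in DNMT1 knockdown (median log2 fold change -0.03), and 4 rose and 7 fell in DNMT3B knockdown (median -0.05). PLIN3, a lipid droplet coat protein, averaged 207 ± 11.9 CPM in DNMT1 knockdown, 145 ± 6.88 CPM in DNMT3B knockdown and 248 ± 12 CPM in Control and fell in both (edgeR adjusted p = 3.99e-06 and 3e-16). CPT1A, the gate of fatty acid entry into mitochondria, fell by 0.27 in DNMT3B knockdown (adjusted p = 6.49e-08). It was called lower in DNMT1 knockdown too (-0.11, adjusted p = 0.00819). That DNMT1 call was lost without DNMT1 knockdown replicate 3 or Control replicate 1 (adjusted p up to 0.0681). ACADVL, the first enzyme of long-chain oxidation, fell by 0.22 in DNMT3B knockdown (adjusted p = 1.04e-05). ACADVL was called higher in DNMT1 knockdown (0.11, adjusted p = 0.0199), a call lost without DNMT1 knockdown replicate 2 or Control replicate 1 (adjusted p up to 0.12). PNPLA2, the triglyceride lipase, fell by 0.19 in DNMT1 knockdown (adjusted p = 0.000291) and by 0.19 in DNMT3B knockdown (adjusted p = 0.000182). CPT1C fell by 0.34 (adjusted p = 0.00482) and 0.54 (adjusted p = 4.72e-05) in the same order. MGLL, the monoglyceride lipase, rose by 0.24 in DNMT1 knockdown (adjusted p = 0.0034) and 0.64 in DNMT3B knockdown (adjusted p = 6.59e-10). DGAT2, which makes triglyceride, rose by 0.75 in DNMT3B knockdown (adjusted p = 1.95e-05). CPT2 rose by 0.18 in DNMT1 knockdown (adjusted p = 0.00326). PLIN2 rose by 0.21 in DNMT3B knockdown (adjusted p = 0.000356), while its call in DNMT1 knockdown (0.14, adjusted p = 0.0118) was lost without Control replicate 1 or 2 (adjusted p up to 0.0568).

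Ligands and signalling partners of CD36 were called in both directions in each knockdown. Of 15 tested, 2 rose and 4 fell in DNMT1 knockdown (median log2 fold change -0.02), and 2 rose and 8 fell in DNMT3B knockdown (median -0.11; 6 to 8 fell when single libraries were left out, beside 24.6% of all genes). THBS1, thrombospondin 1, a ligand of CD36, averaged 15.7 ± 0.201 CPM in DNMT1 knockdown, 17.8 ± 0.797 CPM in DNMT3B knockdown and 14.6 ± 0.363 CPM in Control and rose in DNMT3B knockdown (0.29, edgeR adjusted p = 0.000265). The Src-family kinase LYN, which signals below CD36, fell by 0.22 in DNMT1 knockdown (adjusted p = 0.000121). LYN was called lower in DNMT3B knockdown too (-0.115, adjusted p = 0.03). That call was lost without any single DNMT3B knockdown library or Control replicate 1 (adjusted p up to 0.307). YES1 fell by 0.16 in DNMT3B knockdown (adjusted p = 0.000208). TLR6, a co-receptor for CD36, fell by 0.24 in DNMT1 knockdown (adjusted p = 0.00496) and by 0.31 in DNMT3B knockdown (adjusted p = 0.000477). TLR2 and TLR4 had 1 count each over all libraries. ZDHHC4, an acyltransferase that palmitoylates CD36, fell by 0.19 in DNMT1 knockdown (adjusted p = 0.00189). It was called lower in DNMT3B knockdown too (-0.148, adjusted p = 0.0107). That DNMT3B call was lost without DNMT3B knockdown replicate 3 or Control replicate 1 or 3 (adjusted p up to 0.0804). The integrins ITGB1 and ITGA3 fell in DNMT3B knockdown, by 0.39 (adjusted p = 5.81e-11) and 0.30 (adjusted p = 3.64e-09). ITGA6 rose to 184 ± 1.14 CPM in DNMT1 knockdown and 123 ± 1.28 CPM in DNMT3B knockdown, against 113 ± 2.14 CPM in Control (adjusted p = 9.99e-18 and 0.00339). FYN was called higher in DNMT1 knockdown (0.16, adjusted p = 0.016), a call lost without DNMT1 knockdown replicate 3 or Control replicate 3 (adjusted p up to 0.0748), which left 1 that rose.

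The next list held nuclear receptors that act on CD36, with the coactivator PPARGC1B and with CEBPA and CEBPB, which are not nuclear receptors. PPARG activates CD36 in macrophages. The part of any gene of this list in the CD36 values was not tested. Of the 10 tested genes of this mixed list, 3 rose and 4 fell in DNMT1 knockdown (median log2 fold change -0.09). In DNMT3B knockdown 2 rose and 4 fell (median -0.08). PPARG averaged 53.3 ± 3.64 CPM in DNMT1 knockdown, 40.5 ± 1.37 CPM in DNMT3B knockdown and 38.2 ± 0.797 CPM in Control. It rose in DNMT1 knockdown (0.48, edgeR adjusted p = 7.93e-10) and was not called in DNMT3B knockdown (adjusted p = 0.19). Its partner RXRA rose by 0.21 in DNMT1 knockdown (adjusted p = 0.000128) and fell by 0.18 in DNMT3B knockdown (adjusted p = 0.000652). The oxysterol receptor NR1H3 rose by 0.18 in DNMT1 knockdown (adjusted p = 0.0136) and 0.37 in DNMT3B knockdown (adjusted p = 2.23e-06), and its relative NR1H2 fell by 0.33 (adjusted p = 2.6e-07) and 0.42 (adjusted p = 1.97e-09). CEBPB fell in both, at 27.4 ± 1.17 CPM in DNMT1 knockdown, 29.1 ± 1.08 CPM in DNMT3B knockdown and 36.8 ± 4.17 CPM in Control (adjusted p = 8.9e-07 and 2.12e-05). The coactivator PPARGC1B fell by 0.22 in DNMT1 knockdown (adjusted p = 1.99e-05) and was called higher in DNMT3B knockdown (0.11, adjusted p = 0.0194). The last call was lost without DNMT3B knockdown replicate 3 or Control replicate 1 (adjusted p up to 0.128), which left 1 that rose, and that of NR1H3 in DNMT1 knockdown without DNMT1 knockdown replicate 2 (0.0652).

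Most markers of cells rich in caveolae or CD36 averaged under 1 CPM in each group. Some stood above the group means of CD36 (0.683 to 3.58 CPM) and CAVIN2 (1.06 to 4.14 CPM), among them COL1A1 and GP1BA (9.71 to 11 CPM). Calls on markers stand beside shares over all tested genes of 21% higher and 20.8% lower in DNMT1 knockdown. In DNMT3B knockdown these shares were 23.1% higher and 24.6% lower. So few tested markers per list give no result for a cell type. Summed over 10 endothelial markers, the level was 12 to 14.5 CPM in DNMT1 knockdown, 13.5 to 15.6 CPM in DNMT3B knockdown and 11.1 to 12.5 CPM in Control, with 2 called higher and 1 lower of 6 tested in DNMT3B knockdown and 1 each way in DNMT1 knockdown. Over 9 adipocyte markers it was 3.79 to 4.54, 4.04 to 5.98 and 3.17 to 3.92 CPM in those groups, and ADIPOQ had no count. Of the 3 tested adipocyte markers 1 was called higher in DNMT3B knockdown, AQP7, which averaged 1.91, 2.76 and 1.5 CPM in those groups (edgeR adjusted p = 3.17e-05). The 10 fibroblast and smooth muscle markers summed to 36.5 to 40.5 CPM in DNMT1 knockdown, 46.9 to 49.4 CPM in DNMT3B knockdown and 32.7 to 38.5 CPM in Control, mostly from COL1A1, MYH11 and ACTA2. Of the 4 tested, 3 were called higher in DNMT3B knockdown. COL1A1 averaged 21.5, 27.5 and 17.6 CPM in DNMT1 knockdown, DNMT3B knockdown and Control (edgeR adjusted p = 3.56e-09 for DNMT3B knockdown), ACTA2 averaged 5.69, 7.26 and 5.27 CPM (0.000195) and DES averaged 0.584, 2.54 and 1.14 CPM (1.65e-06). MYH11 averaged 9.9, 10.1 and 10.9 CPM and was not called. In DNMT1 knockdown COL1A1 was called higher (0.30, edgeR adjusted p = 0.00123) and DES lower (-0.94, adjusted p = 0.00276). DES thus had the same signs as CAVIN2. PDGFRB had 47 counts over all libraries, PDGFRA 3, COL3A1 and LUM 1 each, and COL1A2 and DCN none. Over 10 macrophage and platelet markers the sum was 16.7 to 18.8 CPM in DNMT1 knockdown, 17.4 to 18.7 CPM in DNMT3B knockdown and 17.5 to 19 CPM in Control, with PF4 and GP9 at no count. CSF1R of that list was called higher in DNMT3B knockdown (0.31, edgeR adjusted p = 0.0417), a call lost without DNMT3B knockdown replicate 1 or 3 or Control replicate 2 or 3 (up to 0.219). Among the endothelial markers, VWF (1.09, adjusted p = 3.86e-06) and ESAM (0.33, adjusted p = 0.00592) were the 2 called higher in DNMT3B knockdown. CLDN5 was the 1 called lower (-0.52, adjusted p = 0.0188), a call lost without DNMT3B knockdown replicate 1 or 3 or Control replicate 3 (up to 0.126). The part of these marker genes in the CAV1, CAV2 and CAVIN2 values of DNMT3B knockdown was not tested.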

How the data were processed

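Values started from the deposited counts, whole reads for each gene symbol in each library, not normalized by the authors. The submitters' processing notes name STAR, featureCounts, DESeq2 and GRCh38 (hg38), and no source used here states their versions, the annotation or the strand setting. Genes passing filterByExpr, 16660 of 25886, were TMM-scaled and fitted with edgeR 4.0.16 (R 4.3.3) by quasi-likelihood over all 9 libraries, so the groups share 1 estimate of the spread. Adjusted p-values are Benjamini-Hochberg over all tested genes, called below 0.05. Positions, exon lengths and neighbours are from GENCODE on GRCh38, promoters from RefSeq.

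The genes and lists were chosen with earlier results of these data known. Named besides the 6 genes were, per list and knockdown, up to 3 called genes each way with the smallest adjusted p. The 3 genes most like CD36, CAVIN2 and CAV1 by r were named too. So were tested neighbours lying wholly within 500 kb, given as counts for CAVIN1 and CAVIN3. Marker genes, and some values in the other knockdown such as SCARB2 in DNMT3B knockdown and ACADVL in DNMT1 knockdown, were named after their values were seen. A gene's CPM of 0 counts allows up to 3 counts, 0.0891 to 0.16 CPM by library (counting error only). Chi-square over degrees of freedom was 1.78 to 3.64 between replicates, above the sampling noise in each pair, so every library counted once. Alternatives were DESeq2 1.42.0, other scalings and filters, fits of 2 groups, a replicate block and leaving out each library.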

Additional observations from a re-analysis of the deposited data

How the results depend on the processing

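The log2 fold changes of the 6 genes kept their sign in the 3 comparisons under all alternatives that were run. CAVIN1 in DNMT3B knockdown against Control was called lower with no low-count filter (-0.088). Without 1 library, log2 fold changes ranged from 0.023 to 0.098 for CAVIN1 in DNMT1 knockdown against Control, from -0.338 to -0.21 for CAVIN3 in DNMT3B knockdown against Control and from -1.017 to -0.491 for CD36 in DNMT1 against DNMT3B knockdown. Of the 6 genes, 0 to 1 were then called higher in DNMT1 knockdown and 1 to 2 lower in DNMT3B knockdown against Control. Of 98 calls on named genes, 22 were lost under at least 1 alternative and 0 changed sign. The DESeq2 Wald test did not call ERLIN2 (adjusted p = 0.0971), FYN (0.0568), NR1H3 (0.0542), SCARF2 (0.0989), ST7-AS1 (0.0501) and PACSIN1 (0.0853) in DNMT1 knockdown, or FLOT2 (0.082), SCARB2 (0.0651), LYN (0.0806), CLDN5 (0.0695) and CSF1R (0.145) in DNMT3B knockdown. FLOT2 was also lost there with no TMM factors (0.0649) and the filter of 1 CPM in 3 libraries (0.0613), and without a low-count filter ERLIN2 (0.0933) and CSF1R (0.0586) were lost. Each count of called genes stayed within 1.5 times. Of 672 list counts under alternatives, 32 moved by over 1.5 times. With windows moved 50 bases downstream, the CG count of 3 of the 6 CD36 windows changed, to 2, 0 and 3.

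Replicate numbers did not pair the libraries, since deviations of same-numbered libraries correlated at -0.061 to 0.042 and the best match had its own number in 4 of 18 cases. With the replicate block, 3424 genes were called higher and 3372 lower in DNMT1 knockdown against Control, beside 3499 and 3457 without it, and no call on the 6 genes changed. The block ended 1 call on a named gene, FLOT2 in DNMT3B knockdown (adjusted p = 0.0542). Depth limits CD36 and CAVIN2, with 15 to 42 and 18 to 103 counts in knockdown libraries.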
